A study of Homo sapiens with 4 samples.

Results

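The SOCS family of cytokine signal suppressors was compared between LN229 cells in which *SOX2* was knocked down and mock-transfected LN229 cells. The family comprises *CISH* and *SOCS1* to *SOCS7*. Its members were found by gene symbol in the array annotation, which gave 8 genes of the 20481 symbols on the arrays and 8 of the 33096 gene probes, since each member had 1 probe. The rule used no measured value, though the family was chosen with earlier results of these data known. LN229 is an established human glioblastoma line, and *SOX2* encodes an HMG-box transcription factor of stem cells. All cells grew in DMEM. The *SOX2* knockdown group received siRNAs against *SOX2*, and the mock knockdown group received a control siRNA without a target. siRNAs are short RNA duplexes that guide the cell to cleave a matching transcript. Both transfections were transient, so no allele was altered and the control cells also passed through transfection. Each group had 2 arrays, which the methods of the study describe as biological replicates that include the transfection, and both groups come from 1 cell line.

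SOCS proteins end a cytokine signal that they are themselves induced by. A cytokine binds its receptor, JAK kinases attached to the receptor phosphorylate STAT transcription factors, and STAT factors switch on genes that include several of this family. Every SOCS protein carries an SH2 domain, which docks on phosphotyrosine, and a SOCS box, which binds elongins B and C and cullin 5 and so can direct a bound receptor or adaptor to ubiquitination. SOCS1 and SOCS3 also hold a short region that inhibits JAK kinases directly. CISH and SOCS2 are best known as feedback regulators of STAT5 and of growth hormone signalling, and SOCS4 to SOCS7 have been tied more to receptor tyrosine kinases and adaptors.

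Promoter sequence is shown for the members whose windows held a motif of these pathways. Promoters from RefSeq (GRCh38.p14), from 250 bases before to 50 bases after a transcription start, were given for 5 of the 8 members in 6 windows, *SOCS3* having 2, and not for *SOCS2*, *SOCS5* and *SOCS7*. They were searched on both strands for the STAT motif TTCNNNGAA, which reads the same on both strands, and for an interferon motif, GAAA followed after any 2 bases by a further GAAA. The STAT motif occurred in 7.66% of 35116 promoter windows of this length and the interferon motif in 3.57%. The stretch shown for *CISH* (chr3:50611868-50612024, minus strand) was chosen because it holds 4 STAT motifs, the most in any window, a number reached in 7 windows (0.0199%). They began at positions -241, -230, -129 and -112 relative to the start. The stretch shown for *SOCS1* (chr16:11256298-11256327, minus strand) holds its 1 interferon motif, at position -113. Capitals mark the motifs, and each sequence reads 5′ to 3′ towards the gene.
*CISH*: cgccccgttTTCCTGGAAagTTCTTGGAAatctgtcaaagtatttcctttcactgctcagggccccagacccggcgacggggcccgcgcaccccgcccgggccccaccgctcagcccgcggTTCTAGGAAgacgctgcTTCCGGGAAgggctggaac
*SOCS1*: cgccaccgcgGAAAGAGAAAccaaaagtgg
Neither motif was found in the windows of *SOCS3*, *SOCS4* and *SOCS6*, which says only that these letters are not in those windows. *SOCS3* in particular is a known STAT3 target.

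The arrays were 1-colour oligonucleotide arrays read by chemiluminescence. Signals are given here relative to the 75th percentile of the gene probes of their array, called scaled signal, and a change is the difference of mean log2 scaled signal, *SOX2* knockdown minus mock. The signal-to-noise ratio of a feature (S/N) exceeded 3 for 63.5% to 68.9% of gene probes per array, and 21256 of 32886 probes were compared, those whose 2 arrays exceeded it in either group. Differences were tested with limma and the Benjamini-Hochberg adjustment over those 21256 probes, of which 0 passed an adjusted p of 0.05, 241 (1.13%) an adjusted p of 0.1, and 3626 (17.1%) an unadjusted p of 0.05. The median change of all probes was -0.00, and the 5th and 95th percentiles were -0.60 and 0.62. The 2 mock arrays differed from each other by a median of 0.22 on the log2 scale, the 2 knockdown arrays by 0.17, and the 4 pairs of a mock and a knockdown array by 0.21 to 0.32. For any 1 probe, an exact permutation test of 2 arrays against 2 cannot give a two-sided p under 0.333.

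One label field, on treatment, gives the cells as SW620, which derive from colon cancer, against LN229 in the remaining fields. Of 14 glioma and astroglial markers on the arrays 11 were compared. *VIM*, the intermediate filament gene of mesenchymal and glial cells, was at a scaled signal of 51.6 to 59.6 and *CD44*, a surface receptor, at 14.01 to 14.7. These levels, named after they were seen, do not decide between LN229 and SW620. *SOX9*, *CHI3L1* and *AQP4* did not pass the S/N filter. The summed scaled signal of the 14 was 131.7 and 152.1 in mock against 121.96 and 109.7 after knockdown, without overlap. Of the 11 compared 0 were over 2-fold higher and 3 lower, beside 1.57% and 1.04% of all probes, with a median change of -0.30. The 3 were *FABP7*, *CSPG4* and *SOX2*, which is itself the target of the siRNAs. The part of this lower marker signal in the changes of the SOCS family was not tested. Of 14 colon epithelial markers 4 were compared, 2 had an S/N over 3 on all 4 arrays, and 5 had it on none. *CDH1*, the epithelial cadherin, was at the lowest permitted value of 0.01 on all 4 arrays. The summed scaled signal of the 14 colon markers was 0.701 and 0.699 in mock against 0.559 and 1.06 after knockdown. Of 10 leukocyte markers, whose cells are rich in SOCS transcripts, 6 were compared, all with an S/N over 3 on all 4 arrays. The pan-leukocyte gene *PTPRC* was not compared. The sum of the 10 was 4.95 and 3.85 in mock and 4.003 and 5.23 in knockdown, so the groups overlapped in both the colon and the leukocyte list. In a bulk sample, fewer cells of a type and less RNA per cell cannot be told apart.

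*SOX2* itself read 0.467 and 0.701 in mock, as scaled signal, against 0.209 and 0.149 after knockdown. Both knockdown arrays were below both mock arrays, with a mean of 0.179 ± 0.0424 against 0.584 ± 0.165 (SD, n = 2 each), a ratio of 0.307. The change was -1.69 (SE 0.28) with a limma adjusted p of 0.117, so the targeted transcript was lower on every labelled knockdown array without passing the test. After knockdown its S/N was 3.17 and 3.06, close to the limit of 3.

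All 8 SOCS probes passed the S/N filter, and 7 had an S/N over 3 on all 4 arrays. *SOCS4* was the exception, with an S/N of 2.73 on the second mock array. It passed the filter only through the knockdown group, where it was higher. Its place among the higher members in the counts below is therefore partly built in. Under the 2-fold cutoff of group means that the study's methods use, 1 member was lower, *SOCS2*, and 0 were higher, beside 1.04% of all probes lower and 1.57% higher. At 1.5-fold, 2 members were higher (*SOCS3* and *SOCS4*) and 1 lower, beside 5.32% and 5.19% of all probes. The 2 groups did not overlap for 5 members, of which 4 were higher and 1 lower after knockdown, whereas 47.0% of all probes had groups that did not overlap (21.2% higher and 25.8% lower). With limma, 0 of 8 members passed the adjusted p of 0.05, and their adjusted p ranged from 0.102 to 0.988. The same 5 members had an unadjusted p under 0.05, beside 17.1% of all probes. Of the 8 changes 6 were above 0 and 2 below, with a median of 0.35 beside -0.00 for all probes.

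**Figure D1:**
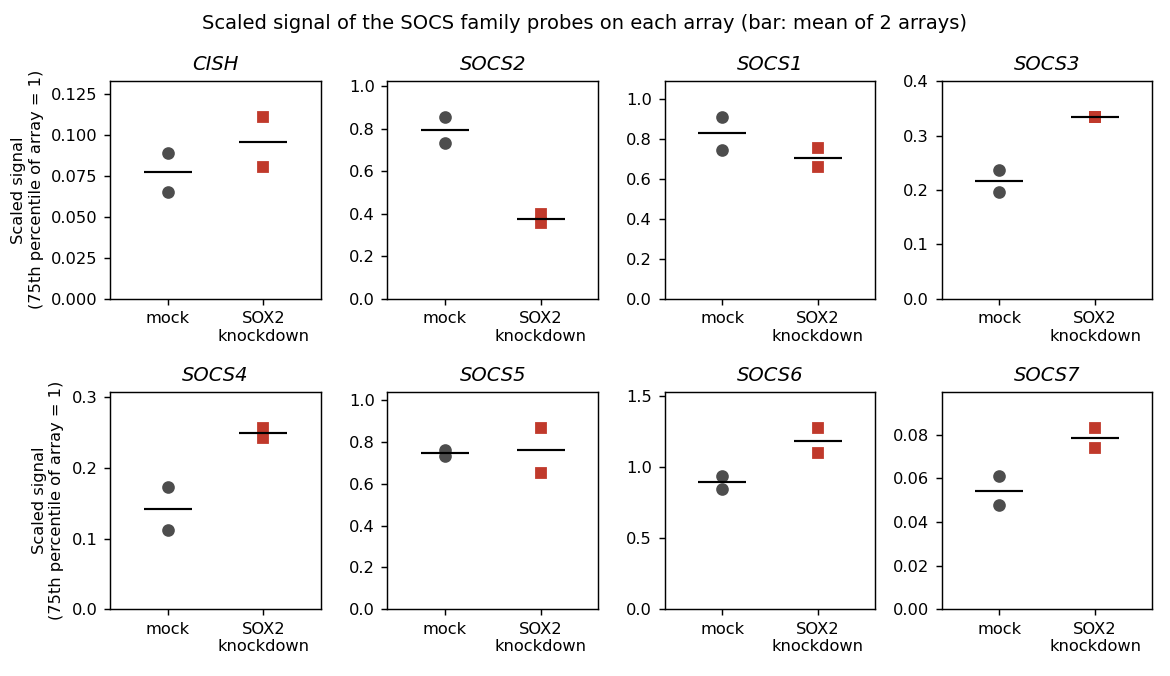
Scaled signal of each SOCS family probe (75th percentile of the array = 1, linear axes from 0 that differ between panels) on the 2 mock arrays (circles) and the 2 *SOX2* knockdown arrays (squares), with the mean of each group as a bar. *SOCS2* lay at 0.733 and 0.853 in mock and at 0.396 and 0.356 after knockdown, while *SOCS3*, *SOCS4*, *SOCS6* and *SOCS7* lay higher on both knockdown arrays and *SOCS1*, *SOCS5* and *CISH* overlapped. Levels of different probes are not comparable with each other.

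*SOCS2*, the feedback inhibitor of growth hormone signalling, had the largest change of the family. Its probe (gene ID hCG40090.2) read 0.733 and 0.853 in mock and 0.396 and 0.356 after knockdown. Both knockdown arrays were below both mock arrays, and the distance between the groups exceeded the distance between the arrays of either group. The mean was 0.376 ± 0.0287 after knockdown and 0.793 ± 0.0852 in mock (SD, n = 2 each), 2.11-fold lower. The change of -1.07 had an SE of 0.15 and a 95% interval from -1.48 to -0.67, and the limma adjusted p was 0.102. Of all 21256 probes 0.748% had a lower change. Within a group the 2 arrays differed by 0.22 (mock) and 0.16 (knockdown) on the log2 scale. The test depended on the scaling, since with each array divided by its median the change was -1.11 with a limma adjusted p of 0.00622. In that fit limma gave every probe the same variance and called 806 of all probes, against 0 in the fit reported. Without the second mock array the change was -0.96 and no longer past 2-fold.

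*CISH*, the STAT5 target whose promoter is shown above and the closest relative of *SOCS2*, did not differ beyond its spread. The probe (hCG17457.4) read 0.0891 and 0.0654 in mock and 0.0801 and 0.111 after knockdown. The groups overlapped, since the first knockdown array lay between the 2 mock arrays. The ratio of means was 1.24 and the change 0.30 (SE 0.25, limma adjusted p 0.647), with an interval of the ratio from 0.778 to 1.96. Its replicates lay 0.45 and 0.47 apart on the log2 scale, more than the change itself.

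*SOCS3*, which inhibits JAK kinases bound to the IL-6 receptor subunit gp130, was higher after knockdown. The probe (hCG1776363.2) read 0.196 and 0.237 in mock and 0.334 on both knockdown arrays. Both knockdown arrays were above both mock arrays, and the ratio of the means (0.334 against 0.217 ± 0.0287, SD, n = 2 each) was 1.54. The change of 0.63 (SE 0.15, interval 0.22 to 1.04) had a limma adjusted p of 0.171. The 95th percentile of all probes was 0.62, about the same.

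*SOCS1*, the inhibitor of interferon signalling whose promoter carries the interferon motif, had overlapping groups. The probe (hCG14617.2) read 0.909 and 0.747 in mock and 0.660 and 0.755 after knockdown. The second knockdown array was above the second mock array. The ratio of means was 0.855, the change -0.22 (SE 0.17, limma adjusted p 0.61), and the interval of the ratio ran from 0.627 to 1.17. The change was -0.08 without the first mock array and -0.36 without the second.

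*SOCS4* and *SOCS5* form a pair with long amino-terminal regions that has been tied to the EGF receptor. The *SOCS4* probe (hCG1790822.1) read 0.173 and 0.112 in mock and 0.257 and 0.243 after knockdown. Both knockdown arrays were above both mock arrays, and the means were 0.25 ± 0.00953 and 0.143 ± 0.0434 (SD, n = 2 each), a ratio of 1.75. The change of 0.84 (SE 0.25, interval 0.19 to 1.502) was the largest upward value in the family, and its limma adjusted p was 0.215. The mock value rests on 1 array with S/N over 3 (4.42) and 1 below it (2.73), and these 2 arrays differed by 0.63 on the log2 scale. Without the first mock array the change was 1.16, past 2-fold, and without the second it was 0.53. The *SOCS5* probe (hCG1818071.1) read 0.759 and 0.731 in mock and 0.865 and 0.653 after knockdown. Here the knockdown arrays lay on either side of the mock arrays, the ratio of means was 1.02 (interval 0.717 to 1.42), and the change was 0.01 (SE 0.18, limma adjusted p 0.988). The sign of this change turned under other scalings and carries no direction.

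*SOCS6* and *SOCS7*, the remaining pair, bind insulin receptor substrates and other phosphotyrosine adaptors. The *SOCS6* probe (hCG16045.4) read 0.850 and 0.942 in mock and 1.28 and 1.10 after knockdown. Both knockdown arrays were above both mock arrays, with a ratio of 1.33 and a change of 0.41 (SE 0.15, interval 0.00 to 0.81, limma adjusted p 0.292). The *SOCS7* probe (hCG39090.3) read 0.0479 and 0.0610 in mock and 0.0831 and 0.0738 after knockdown. The groups again did not overlap, with a ratio of 1.44 and a change of 0.54 (SE 0.18, interval 0.06 to 1.02, limma adjusted p 0.254). Neither change left the range between the 5th and 95th percentile of all probes.

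**Figure D2:**
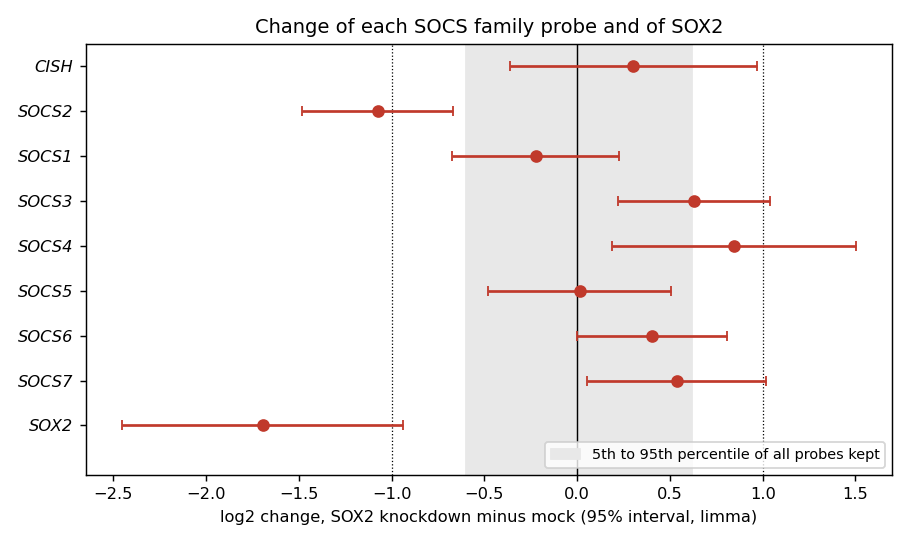
Change of each SOCS family probe and of *SOX2* (log2 scaled signal, *SOX2* knockdown minus mock), with 95% intervals from limma over 2 arrays per group. The grey band runs from -0.60 to 0.62, the 5th to 95th percentile of all probes compared, and dotted lines mark 2-fold. *SOCS2* lies at -1.07, to the left of the band, *SOCS4* at 0.84 to its right, and the intervals of *CISH*, *SOCS1* and *SOCS5* cross 0.

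The members were also read against *SOCS2* within each array, as the log2 ratio of a member to *SOCS2*, which does not depend on how an array is scaled. *SOCS2* was taken as the denominator because it had the largest change, so its own difference is part of every ratio and the values are a description. Relative to the mock mean, the ratio of *SOCS4* to *SOCS2* was higher by 1.88 and 1.96 on the 2 knockdown arrays, that of *SOCS3* by 1.63 and 1.78, that of *SOCS7* by 1.62 and 1.602 and that of *SOCS6* by 1.51 and 1.45. The other ratios were higher by 1.07 and 1.69 (*CISH*), 1.21 and 0.96 (*SOCS5*) and 0.68 and 1.03 (*SOCS1*). The mock arrays were at most 0.43 from their own mean. A higher ratio does not show that the member itself was higher.

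**Figure D3:**
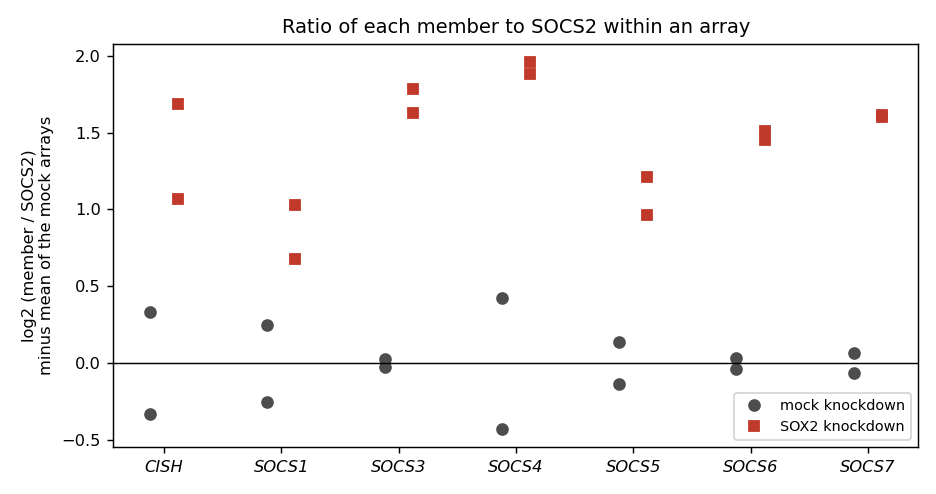
Log2 ratio of each member to *SOCS2* within an array, minus the mean of the mock arrays, for the 2 mock arrays (circles) and the 2 *SOX2* knockdown arrays (squares). The knockdown values run from 0.68 for *SOCS1* to 1.96 for *SOCS4*, and each includes the difference of *SOCS2*, the denominator, which was chosen for it.

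The probes whose pattern over the 4 arrays was nearest to that of *SOCS2* were sought among 19461 probes with S/N over 3 on every array, as the Euclidean distance between log2 signals after each probe's own mean was removed. They were those of *C16orf24* (distance 0.0464, change -1.05), *APIP*, a methionine salvage enzyme (0.0465, change -1.06), *GYPC*, a red-cell membrane glycoprotein (0.0643, change -1.01), *MCAM*, an adhesion molecule (0.0693, change -1.06), and *CPXM2* (0.0694, change -1.01). With 4 arrays in 2 groups, a near pattern is mostly a like change, so these are genes lower by about as much as *SOCS2*.

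The surroundings of the family in the pathway were taken from 7 lists of 151 genes on the arrays, of which 118 were compared. Where a gene had several probes that passed the filter, the brightest was used. Of the 118 genes 8 were over 2-fold higher and 4 over 2-fold lower (10.2%), beside 2.61% of all probes, and 0 passed limma's adjusted p of 0.05. Their median change was -0.03. Because the lists were chosen with earlier results of these data known, the larger share is partly built in and is only a description.

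Cytokines and receptors that signal through JAK kinases gave 4 genes over 2-fold higher and 0 lower of 27 compared, beside 1.57% and 1.04% of all probes. The median change of the list was -0.03. *IL6*, the cytokine that induces *SOCS3* through gp130 and STAT3, read 0.0545 and 0.0683 in mock and 0.640 and 0.631 after knockdown. Its change was 3.38 (SE 0.16), with a limma adjusted p of 0.0582, the smallest reached by any probe. *CLCF1*, another gp130 cytokine, read 0.0957 and 0.0974 in mock and 0.230 and 0.211 after knockdown, a change of 1.19 (limma adjusted p 0.0833). *IL11*, also of this family, read 0.457 and 0.400 against 0.834 and 0.893, a change of 1.01 (limma adjusted p 0.102). *IL7R*, the receptor of interleukin-7, read 0.0495 and 0.0349 against 0.134 and 0.0721, a change of 1.24 (limma adjusted p 0.217). With 1 of 2 mock arrays over the S/N limit, *IL7R* was kept only through the knockdown group, where it was higher. Groups that do not overlap were a condition for naming these 4 genes, and 47.0% of all probes had such groups. The gp130 gene *IL6ST* had overlapping groups, at 0.569 and 0.647 in mock and 0.791 and 0.592 after knockdown, and *LIF* was at 4.45 and 4.46 against 4.56 and 3.92. The receptor gene *LIFR* did not overlap, at 0.117 and 0.112 in mock and 0.168 and 0.245 after knockdown. Its change was 0.82 (limma adjusted p 0.196), with a mock S/N of 3.73 and 3.22, close to the limit. *TSLP* had 2 probes that disagreed, the brighter with a ratio of knockdown to mock of 0.759 and the other past 2-fold higher.

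Of the JAK kinases and STAT factors 7 of 11 were compared, and 0 passed 2-fold, beside 2.61% of all probes. At that share a count of 0 says little about a list this short. Of the 7 changes 6 were below 0 (median -0.19). *JAK2*, the kinase of the growth hormone receptor, had a change of -0.23 (limma adjusted p 0.487), and *STAT3* one of -0.07. *STAT5A* did not pass the S/N filter, and *STAT5B* had a change of 0.00. Other inhibitors of the pathway (phosphatases, PIAS proteins and adaptors) were compared in 12 cases, with 0 past 2-fold beside the same 2.61%, and a median of 0.02. The largest value was that of *PIAS4*, a SUMO ligase, with 0.119 and 0.182 in mock and 0.275 and 0.223 after knockdown (change 0.75, limma adjusted p 0.262).

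The partners of the SOCS box had small changes. All 9 elongin-cullin genes on the arrays were compared, 0 passed 2-fold, beside 2.61% of all probes, and the median change of the list was -0.01. *CUL5*, the cullin of SOCS ligases, read 0.178 and 0.170 in mock and 0.141 and 0.136 after knockdown, a change of -0.33 without overlap (limma adjusted p 0.300). Of 28 other genes for proteins with a SOCS box, such as the ASB and SPSB groups, 20 were compared and 0 passed 2-fold, beside the same 2.61%. Their groups did not overlap for 12, 6 in each direction, where 47.0% of all probes had groups that did not overlap, and their median was -0.04.

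Receptors and adaptors that SOCS proteins bind gave 2 genes over 2-fold higher and 2 lower of 20 compared, beside 1.57% and 1.04% of all probes. The median change of the list was -0.10. *PDGFRA*, the receptor of platelet-derived growth factor, read 0.101 and 0.102 in mock and 0.0282 and 0.0403 after knockdown (change -1.59, limma adjusted p 0.099). With 1 of 2 knockdown arrays over the S/N limit, *PDGFRA* was kept only through the mock group, where it was higher. *KIT*, the stem cell factor receptor that SOCS1 and SOCS6 bind, read 0.180 and 0.192 against 0.0638 and 0.0738 (change -1.44, limma adjusted p 0.0833). *GAB1* and *CRKL*, docking proteins of receptor tyrosine kinases, had changes of 1.01 and 1.06 (limma adjusted p 0.106 and 0.237). *CRKL* had 1 of 2 mock arrays over the S/N limit and was kept only through the knockdown group, where it was higher. *EGFR*, which SOCS4 and SOCS5 bind, read 0.376 and 0.390 in mock and 0.589 and 0.545 after knockdown, a change of 0.57 (limma adjusted p 0.161). In these genes also both knockdown arrays lay on 1 side of both mock arrays, which was a condition for naming all of them but *EGFR*.

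STAT target genes outside the family gave 2 genes over 2-fold higher and 2 lower of 23 compared, beside 1.57% and 1.04% of all probes. The median change of the list was 0.02. *IRF1*, a transcription factor of interferon responses, had a change of 1.16 (limma adjusted p 0.0938), and *VEGFA*, listed on the arrays as *VEGF*, one of 1.24 (limma adjusted p 0.129). *GBP2*, an interferon-induced GTPase, read 2.14 and 2.04 in mock and 0.953 and 0.945 after knockdown (change -1.14, limma adjusted p 0.0835). *A2M*, a protease inhibitor, read 71.1 and 80.8 against 38.3 and 31.6 (change -1.12, limma adjusted p 0.105). *MYC* and *CEBPD*, both known STAT3 targets, had changes of 0.72 and 0.67 (limma adjusted p 0.144 and 0.131). In this list 12 changes were above 0 and 11 below, so neither the STAT targets nor the SOCS family had a single direction.

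**Figure D4:**
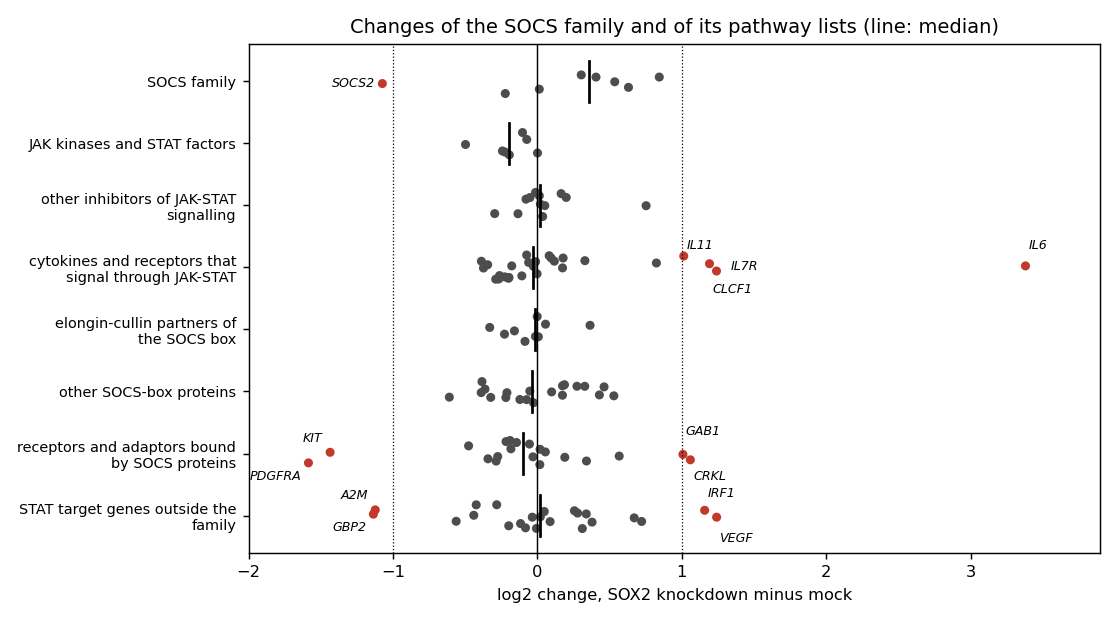
Change (log2 scaled signal, *SOX2* knockdown minus mock) of every gene compared in the SOCS family and in the 7 pathway lists, 1 point per gene, with each list's median as a vertical line and 2-fold as dotted lines. Labelled points are *SOCS2* and the 12 genes past 2-fold, with *IL6* at 3.38 as the rightmost, and vertical position within a list has no meaning.

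The family's changes were recomputed under other scalings, backgrounds, filters and models and with each array left out. Under these alternatives *SOCS1* and *SOCS2* were below 0 and *SOCS3*, *SOCS4*, *SOCS6* and *SOCS7* above it, with *SOCS2* between -1.18 and -0.71, whereas *SOCS5* and *CISH* reached both sides of 0.

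**Figure D5:**
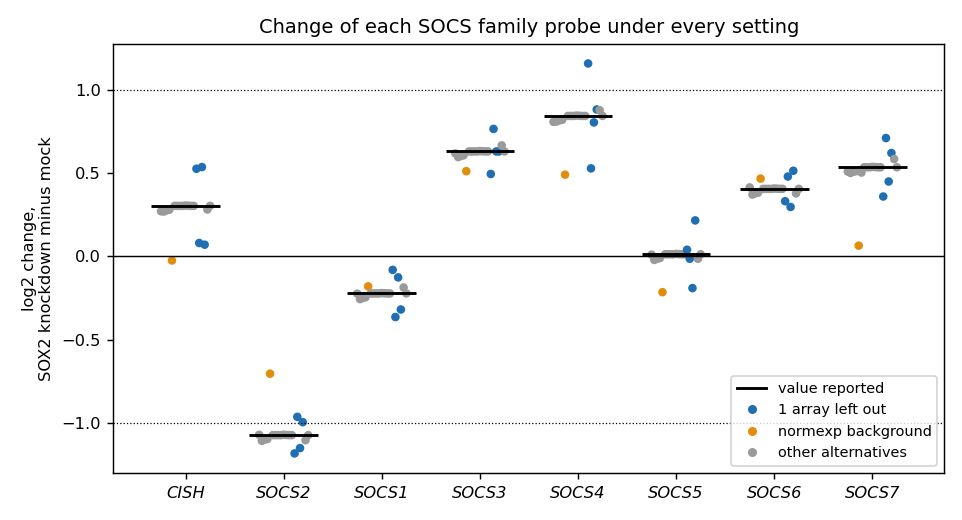
Change (log2, *SOX2* knockdown minus mock) of each member under the alternatives, without a value for *SOCS4* where S/N over 3 was asked of all 4 arrays. Black bars are the values reported, blue points leave out 1 array, orange points use normexp background correction of the raw readings, and grey points are the other alternatives. With normexp *SOCS2* is at -0.71 and *SOCS7* at 0.06, and leaving out an array moves *SOCS4* between 0.53 and 1.16.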

How the data were processed

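Human Genome Survey arrays (Applied Biosystems) were hybridised with biotin-labelled product of 250 ng total RNA each, 2 for mock knockdown and 2 for *SOX2* knockdown, grouped by the source names of the labels. The deposited scanner files hold intensity columns, namely the raw chemiluminescence reading, an assay-normalized signal and a normalized signal on a linear scale whose 75th percentile over gene probes was 5.96 to 6.88. Per the file headers the S/N is a separate column, used as a score of signal over noise. A table of the authors' processed values holds a linear ratio per probe and array and served as an alternative. The software version is not given in the sources used here. The study's methods name the human build hg18 for its analyses, while the array files carry no build.

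Each array carried 37842 features, 33096 of them gene probes. Control features were dropped, and so were 210 probes whose flag reached 5000 on 1 array or more. The normalized signal was divided by the array's 75th percentile, floored at 0.01 of it and taken to log2. Probes were kept where the S/N exceeded 3 on the 2 arrays of either group. Single probes were analysed, as the family was defined by probe, while averaging by Celera gene ID, which the study's methods use, was an alternative. The accession of each member's probe matched a RefSeq transcript of the same current symbol, which matters because older names of *SOCS4*, *SOCS6* and *SOCS7* were crossed. limma 3.58.1 (R 4.3.3; lmFit and eBayes, no block, two-sided) was run over all 21256 probes kept and tested on simulated data with known changes. The number of arrays limits the precision.

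The family and the gene lists were chosen with earlier results of these data known. Named genes were the 8 members, *SOX2*, up to 4 genes per list with the largest change among those past 2-fold without overlap, and the 5 probes nearest in pattern to *SOCS2*. *JAK2*, *STAT3*, *STAT5A*, *STAT5B*, *PIAS4*, *CUL5*, *IL6ST*, *LIF*, *LIFR*, *TSLP*, *EGFR*, *MYC*, *CEBPD* and the markers were named after their values were seen. Alternatives were scaling by quantiles, by the median or not at all, the authors' table, normexp with offset 50 on the raw reading, floors of 0.05 and 0.001, S/N and flag filters, gene-ID averaging, fold cutoffs, a variance trend, the replicate number as a block and each array left out. The assay-normalized signal and a block of crossed numbers were added after seeing the data.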

Additional observations from a re-analysis of the deposited data

How the results depend on the processing

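With 2 arrays per group, every limma p rests on a spread borrowed from all probes, and *SOCS4* and *SOX2* lay near the S/N limit. The change of *SOCS2* passed limma's adjusted p of 0.05 with array median scaling (-1.11, adjusted p 0.00622), no further scaling (-1.102, adjusted p 0.00811), the authors' table (-1.098, adjusted p 0.00773) and a variance trend (-1.07, adjusted p 0.0448), so 1 member passed there instead of 0. These settings called 806, 770, 758 and 287 of all probes, against 0 in the fit reported, and in the first 3 limma gave every probe the same variance. *SOX2* passed in the same 3, at -1.73, -1.72 and -1.72. Quantile normalization called 0, and 75th-percentile scaling with S/N over 3 on all arrays called 5.

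Leaving out 1 array gave *SOCS2* -1.18 to -0.96, *SOX2* -1.99 to -1.40, *SOCS5* -0.19 to 0.22, *CISH* 0.07 to 0.54, *SOCS1* -0.36 to -0.08, *SOCS3* 0.50 to 0.77, *SOCS4* 0.53 to 1.16, *SOCS6* 0.30 to 0.51 and *SOCS7* 0.36 to 0.71, between 0 and 2 members past 2-fold, and 0 to 0 past limma. The 2 members were *SOCS2* and *SOCS4*, without the first mock array, and the 0 came without the second. The count past 2-fold was 0 with normexp, 3 at 1.5-fold and 0 at 3-fold. *SOCS5* turned to -0.021 with the array median, -0.014 with no further scaling, -0.011 in the authors' table, -0.015 with the assay-normalized signal, -0.22 with normexp, -0.01 without the second mock array and -0.19 without the first knockdown array. *CISH* turned to -0.025 with normexp, under which 4 pathway genes were past 2-fold, against 12, and 220 of all probes, against 554. No S/N filter gave 1373 such probes, a floor of 0.05 gave 363, S/N over 3 on all arrays gave 302, and without the first mock array there were 932. The cause of these shifts was not tested.

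Same-numbered arrays tended to deviate in opposite directions from their group means (r = -0.48 across 21256 probes). This sets a single difference between mock arrays against a single difference between knockdown arrays, and the probes are not replicates of it. It therefore cannot decide whether same-numbered samples were prepared together. By median log2 distance, the first mock array lay 0.21 from the second knockdown array and 0.22 from the other mock array. The second mock array lay 0.23 from the first knockdown array, while the 2 knockdown arrays lay 0.17 apart. The fit reported has no term for a deviation shared across the groups, and its source was not tested. With the replicate number as a block, the change of *SOCS2* was -1.07 (limma adjusted p 0.337), 0 of 8 members passed limma and 1 passed 2-fold. With the numbers crossed its adjusted p was 0.0671 and 0 of 21256 probes passed.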
